A study of Arabidopsis thaliana with 6 samples.

Results

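The salicylic acid genes described here are 10 Arabidopsis thaliana loci, taken by locus from a list of genes of the hormone's synthesis and signalling and not by a threshold on their values: SARD1 (AT1G73805), CBP60G (AT5G26920), ICS1 (AT1G74710), EDS5 (AT4G39030), PBS3 (AT5G13320), PAD4 (AT3G52430), EDS1 (AT3G48090), FMO1 (AT1G19250), ACD6 (AT4G14400) and NPR1 (AT1G64280). The list was chosen with earlier results of these data known. All 10 were among the 28309 loci that the probes of the array name. Of these loci 20276 were tested, because both arrays of at least 1 genotype had read their probe well above background, and 9 of the 10 salicylic acid genes were among them. FMO1 was not well above background on any array. In the leaves with the dominant ore15-1D allele 6 of the 9 tested genes fell and 0 rose. Over all tested genes 22% fell and 18.6% rose. The 6 falls ran from 0.51 for ICS1 to 4.21 for SARD1 on the log2 scale. The SARD1 probe was well above background on 1 of the 2 ore15-1D arrays, and its change was -1.48 under another treatment of the background. The count of 6 became 0 in 1 alternative, normexp background correction with scaling to the 75th percentile, where 0% of all tested genes passed. It was also lower without ore15-1D replicate 1, as was the share over all genes. The median change of the 9 genes was then -0.50. In leaves with the ore15-2 allele 0 of the 9 passed the test, beside 3.74% of all tested genes.

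Salicylic acid is a phenolic hormone best known for its part in defence against pathogens that feed on living tissue, and it also accumulates as leaves age. In Arabidopsis most of it is made from chorismate in the chloroplast by isochorismate synthase, exported to the cytosol and completed there, under the control of the transcription factors SARD1 and CBP60g. EDS1 and PAD4 act upstream as a signalling module that raises synthesis, and NPR1 is a receptor through which the hormone switches on its target genes.

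Levels of RNA were read on 1-colour Agilent arrays, 6 in all, each hybridised with Cy3-labelled total RNA. There were 3 genotypes with 2 independent biological samples each: wild-type Col, ore15-1D and ore15-2. Both alleles are of ORE15 (AT1G31040), which encodes a zinc-binding PLATZ protein. From their names and from how they are commonly used, ore15-1D is dominant and ore15-2 lacks ORE15 function, and each allele is represented by 1 line. The labels name no inoculation and no hormone treatment. Plants grew on soil for 13 days in 16 h light and 8 h dark, and leaves number 3 or 4 were harvested 4 days after they emerged, at 5 h after light-on.

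The 75th percentile of the spot signal lay between 747 and 1338 on the 6 arrays, and 67.8% to 73.0% of spots were well above background. Slide 1 carried both ore15-1D arrays with Col replicate 1, and slide 2 carried both ore15-2 arrays with Col replicate 2. The ORE15 probe read 671% and 633% of the 75th percentile signal of its array in ore15-1D and 3.35% and 3.61% in Col. In ore15-2 it read 1.20% and, not well above background, 0.288%. The rise in ore15-1D was 7.55 ± 0.67 on the log2 scale (SE, limma adjusted p = 0.00547), and the ore15-2 value of -2.56 did not pass (limma adjusted p = 0.125). The position of that probe relative to the ore15-2 lesion is not known here, and the ore15-2 reading is therefore no check of that label. As a check of the tissue, all 4 leaf mesophyll markers were well above background on every array. The shoot meristem markers STM, WUS, CLV3 and KNAT1 were above it on none. Markers of other organs were not all absent: the 3 root markers were above background on every Col and ore15-2 array, and the floral marker PI on every array.

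Below, a level is the processed signal of a gene's probe as a percent of the 75th percentile of all probes on the same array, so it sets a gene against itself across arrays and not against another gene. A change is the log2 difference between group means with its standard error (SE), over 2 arrays per group. A gene is said to have risen or fallen where limma's two-sided test gave a Benjamini-Hochberg adjusted p below 0.05 over all tested genes. In leaf tissue as a whole, fewer cells of a type and less RNA per cell cannot be told apart.

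**Figure D1:**
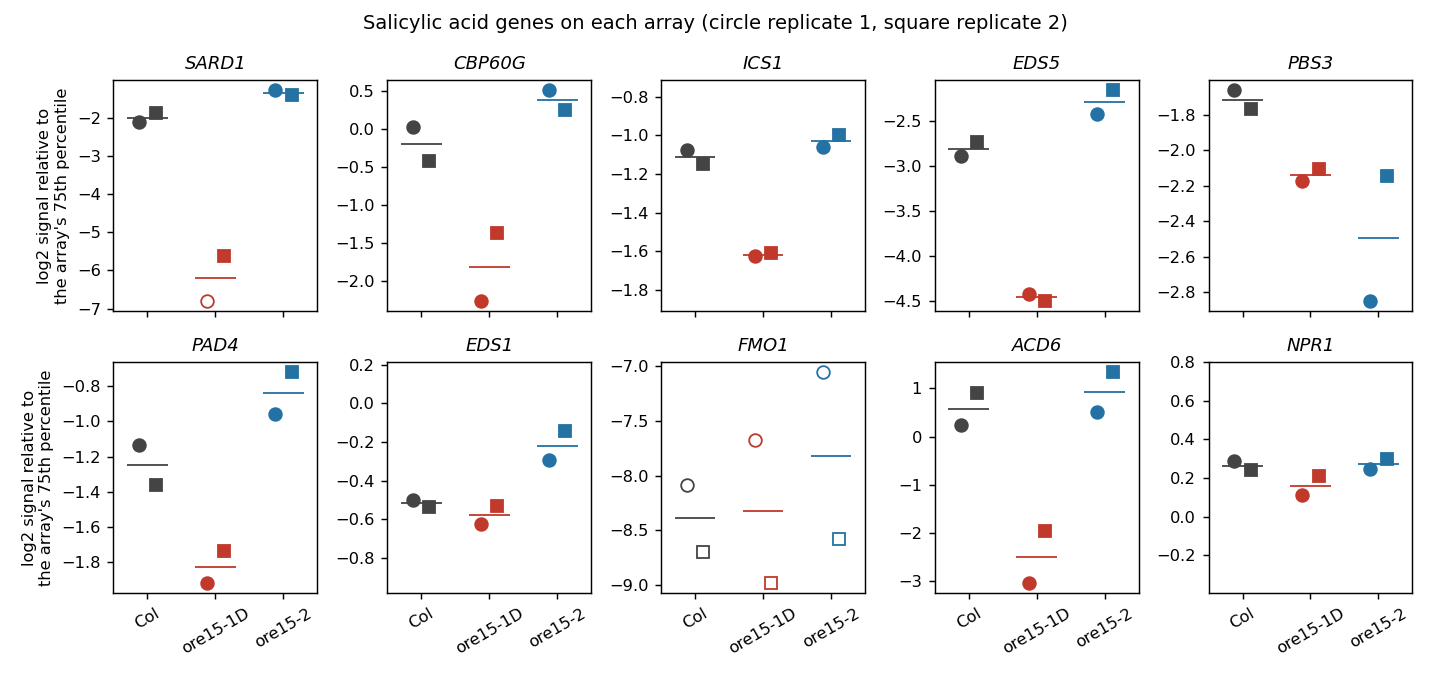
Level of the 10 salicylic acid genes on each of the 6 arrays, 1 panel per gene, as the log2 ratio of the signal to the array's 75th percentile, with axis ranges that differ between panels. Circles are replicate 1, squares replicate 2, open symbols were not well above background, and lines are group means. SARD1, CBP60G, EDS5 and ACD6 sit lowest in ore15-1D, the group means of NPR1 lie between 0.16 and 0.27, and FMO1 has open symbols only.

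Setting ore15-1D against Col asks how the genes differ where the ORE15 transcript is abundant. Of the 9 genes tested 6 fell and 0 rose, while over all genes 40.6% changed, 22% lower and 18.6% higher. The arrays of the 2 genotypes did not overlap for 8 of the 9 genes, all lower in ore15-1D, where 80.4% of all genes did not overlap, 40.4% lower and 40% higher. The median change of the 9 genes was -0.58, beside -0.01 over all tested genes. How calls divide over all genes depended on the scaling, from 3769 that rose and 4468 that fell to 4691 and 3680 after quantile normalization. Among the salicylic acid genes 0 rose and 6 fell under that scaling too.

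SARD1 is a plant-specific transcription factor that binds the ICS1 promoter and is one of the main activators of salicylic acid synthesis. Its probe (chr1:27745788-27745847, TAIR10) read 23.0% and 27.2% in Col, 41.2% and 37.9% in ore15-2, and 0.902% and 2.03% in ore15-1D. The ore15-1D arrays were far below the other 4, and on replicate 1 of ore15-1D the probe was not well above background. The fall was 4.21 ± 0.39 on the log2 scale (limma adjusted p = 0.00574), with 1 of 2 ore15-1D arrays measuring the gene. It was the largest of the 9, but its size depended on the treatment of the background: normexp with quantile normalization gave -1.48 and the authors' deposited table -2.39, both passing. In the first of these ACD6, at -2.13, had the larger fall.

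CBP60G encodes the calmodulin-binding relative of SARD1, which shares many of its targets. Its probe (chr5:9478319-9478378) read 102% and 75.1% in Col, 143% and 119.7% in ore15-2, and 21.0% and 38.8% in ore15-1D. The 3 genotypes did not overlap, and the ore15-1D arrays were again the lowest. CBP60G fell by 1.62 ± 0.34 on the log2 scale (limma adjusted p = 0.0222). The call was lost without ore15-1D replicate 1 (-1.17), without either Col array and with slide as a fixed block (-1.84). Both ore15-1D arrays lay on slide 1, so the slide block gives the same change as leaving out Col replicate 2. These 2 settings are no separate readings.

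ICS1 encodes isochorismate synthase, the enzyme that makes most of the salicylic acid in Arabidopsis. Its level was 47.5% and 45.2% in Col, 47.9% and 50.04% in ore15-2, and 32.5% and 32.7% in ore15-1D. The replicates lay close together, with ore15-1D below and the other genotypes nearly level. The fall of 0.51 ± 0.08 (limma adjusted p = 0.0116) was the smallest of those that passed, and the interval of the change ran from -0.71 to -0.30 at 95% confidence. A second probe, shifted by 3 bases from the first (chr1:28074047-28074106), gave -0.58. Without either ore15-1D array the value was -0.50 or -0.51 and the call was lost (limma adjusted p = 0.0844 in both).

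EDS5 is the transporter of the chloroplast envelope that exports the isochorismate product of ICS1. On its probe (chr4:18188835-18188894) Col read 13.4% and 15.0%, ore15-2 18.6% and 22.3%, and ore15-1D 4.67% and 4.42%. The 3 genotypes stood apart in the order ore15-1D, Col, ore15-2, with close replicates. EDS5 fell by 1.64 ± 0.12 on the log2 scale (limma adjusted p = 0.0046), the lowest adjusted p of the 9, and its other probe (chr4:18188060-18188119) gave -1.47. Leaving out any array left the call in place (limma adjusted p at most 0.0413), while the size was -0.56 after normexp with quantile normalization and -0.69 in the authors' deposited table.

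PBS3 is the cytosolic enzyme that joins glutamate to isochorismate, the step after export. Its level was 31.6% and 29.4% in Col, 22.2% and 23.2% in ore15-1D, and 13.9% and 22.6% in ore15-2. Both mutants were below Col on every array, and ore15-2 replicate 1 was the lowest of the 6. The change in ore15-1D was -0.43 ± 0.24 and did not pass (limma adjusted p = 0.208). It passed where the spread was taken from these 2 genotypes alone (limma adjusted p = 0.0272), and the other PBS3 probe (chr5:4270352-4270411) gave -0.53 ± 0.10, which passed over all probes (limma adjusted p = 0.0185).

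PAD4 is a lipase-like protein that binds EDS1 and is needed for salicylic acid to build up in many defence responses. The brightest of its 3 probes (chr3:19434265-19434324) read 45.5% and 39.0% in Col, 51.5% and 60.7% in ore15-2, and 26.5% and 30.03% in ore15-1D. On this probe the genotypes did not overlap, and the fall in ore15-1D was 0.58 ± 0.14 (limma adjusted p = 0.0312). The probes of PAD4 differed: the other 2 (chr3:19433709-19433768 and chr3:19431627-19431686) gave -0.12 and -0.32 and did not pass. The mean of the 3 probes gave -0.34 (limma adjusted p = 0.237), the authors' deposited table gave -0.14 (limma adjusted p = 0.422), and the call was also lost without any of the 4 arrays, with slide as a fixed block or the replicate number as a block, and without the filter on dim probes.

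EDS1, the lipase-like partner of PAD4 and a central node of defence signalled by many resistance proteins, did not pass in ore15-1D. Its level was 64.9% and 69.3% there against 70.7% and 69.0% in Col, so the arrays overlapped. The change was -0.06 ± 0.09 (limma adjusted p = 0.622), with an interval from -0.30 to 0.18. All 3 EDS1 probes gave values between -0.17 and -0.01 and none passed. In ore15-2 EDS1 read 81.5% and 90.4%, above all 4 other arrays.

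FMO1, the monooxygenase that makes N-hydroxypipecolic acid, a signal of systemic immunity that acts with salicylic acid, gave 0.198% to 0.752% of the 75th percentile on the 6 arrays. It was not well above background on any of them, so no difference between genotypes was detectable, and it was not tested.

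ACD6 is a membrane protein with ankyrin repeats that raises salicylic acid signalling and limits leaf size when it is more active. Its probe (chr4:8298304-8298363) read 118% and 188% in Col, 141% and 252% in ore15-2, and 12.2% and 25.7% in ore15-1D. The replicates were wider apart than those of most members, but both ore15-1D arrays were below every other array. ACD6 fell by 3.07 ± 0.49 (limma adjusted p = 0.0128), and the other 3 of its 4 probes passed as well, at -3.29 to -1.96. The call was lost without ore15-1D replicate 1 (-2.53). It was also lost without Col replicate 2 (-2.74), which gives the same change as slide as a fixed block. The value was -1.85 in the authors' deposited table.

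NPR1, the receptor and coactivator of transcription, was nearly level. It read 108% and 116% in ore15-1D, 122% and 118% in Col, and 118% and 123% in ore15-2. The ore15-1D arrays were just below the others, and the change of -0.11 ± 0.08 did not pass (limma adjusted p = 0.332). Its interval ran from -0.32 to 0.11.

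**Figure D2:**
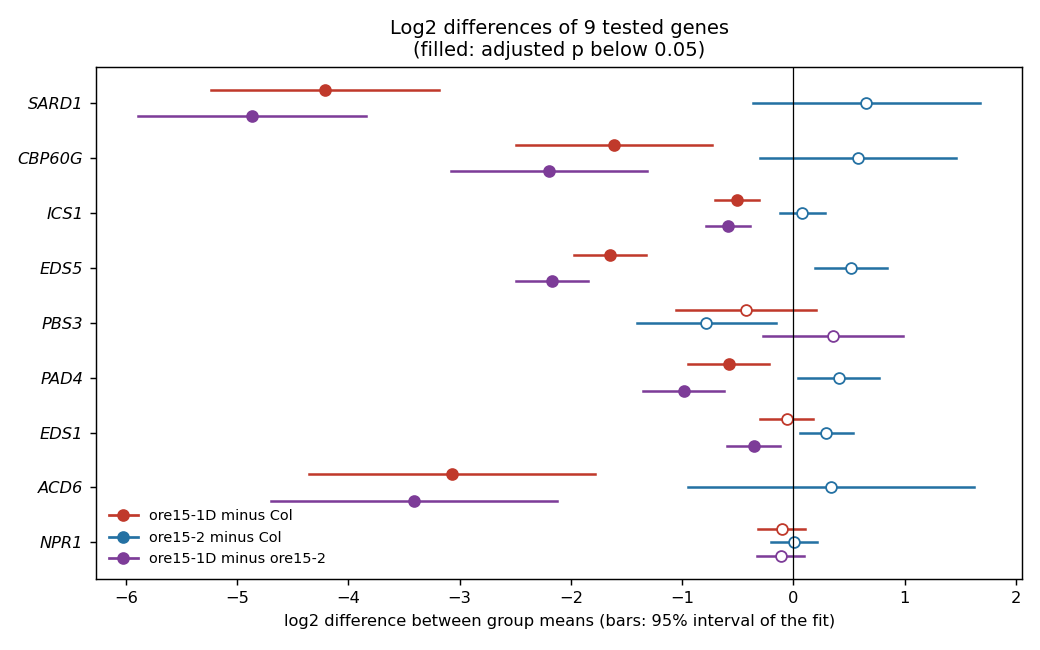
Log2 change of the 9 tested genes in each comparison, with bars for the 95% confidence interval of the limma fit over 2 arrays per genotype and a colour for each of the 3 comparisons. Filled symbols passed at an adjusted p below 0.05. SARD1 and ACD6 lie farthest below 0 in ore15-1D against Col, at -4.21 and -3.07, and no symbol of ore15-2 against Col is filled.

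One setting removed every call. In it the local background was removed by normexp and arrays were scaled to the 75th percentile. In ore15-1D 0 of the 9 genes and 0% of all genes then passed by limma. Of the 9 genes 3 had an unadjusted p below 0.05 by limma, a share not counted over all genes. Under it the median over all genes moved to -0.25. Leaving out 1 ore15-1D or Col array lowered the number of calls, among the 9 genes and over all genes. All 9 changes stayed below 0, with a median of -0.50 without ore15-1D replicate 1 and -0.69 without Col replicate 2. Within slide 1, where both ore15-1D arrays can be set against Col replicate 1 without a test, the changes were -4.09 for SARD1, -1.84 for CBP60G, -0.54 for ICS1, -1.57 for EDS5, -0.69 for PAD4 and -2.74 for ACD6. Their sign could not differ from that of the fit over both slides. They are also the changes with slide as a fixed block and without Col replicate 2, and so no further evidence. For each of these 6 genes both ore15-1D arrays lay below both Col arrays.

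**Figure D3:**
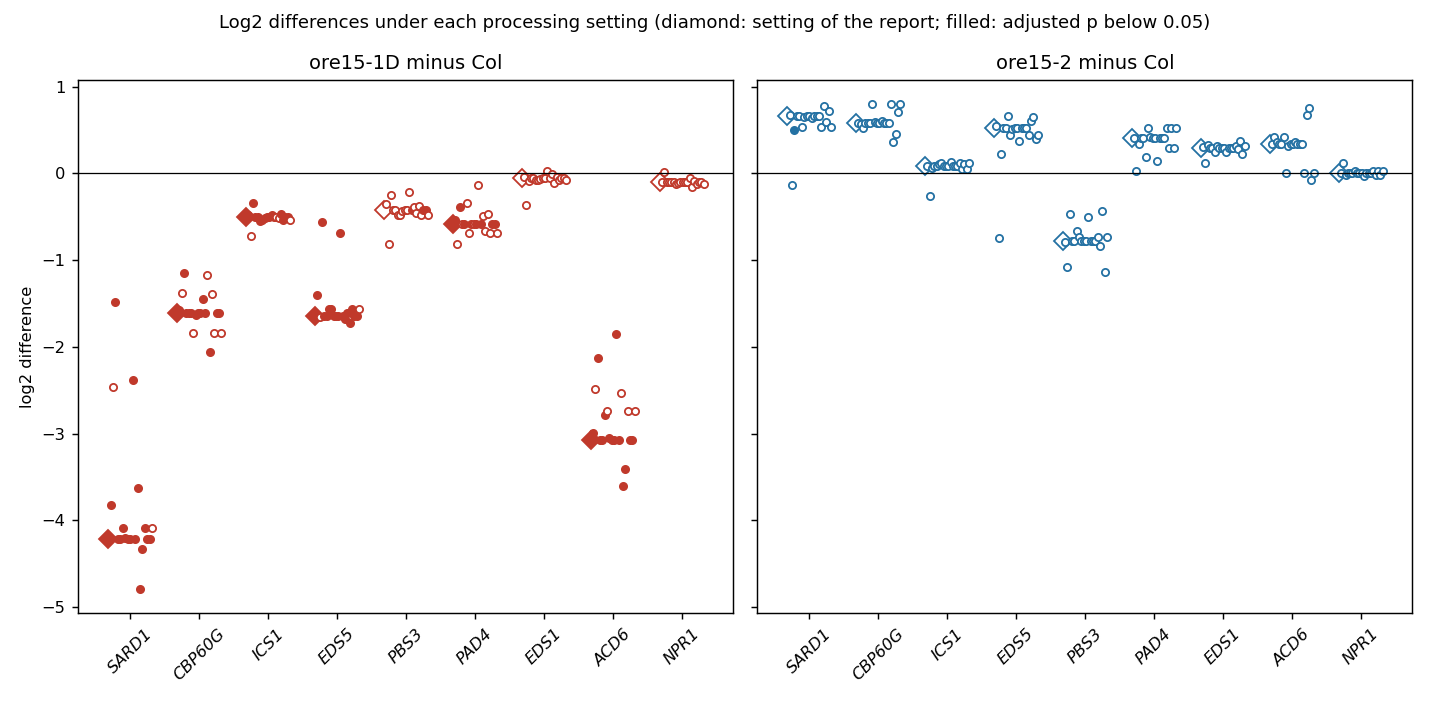
Log2 change of each tested gene under each processing alternative, in ore15-1D (left) and in ore15-2 (right) against Col. A diamond is the setting of the text, and filled symbols passed at an adjusted p below 0.05. The values within one slide have no test and are drawn open. In ore15-1D SARD1 ranges from -4.79 to -1.48, and EDS1 and NPR1 lie near 0.

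Several genes had more than 1 probe. The 2 probes of ICS1 overlap almost fully and are no separate reading, while those of the other 5 genes lie apart. ICS1 had 2 probes, EDS5 and PBS3 had 2 each, PAD4 and EDS1 had 3 each, and ACD6 had 4. For EDS5 and ACD6, as for ICS1, every probe passed in ore15-1D, for EDS1 none did, and for PBS3 and PAD4 1 probe did. Across the ACD6 probes the change ran from -3.29 (chr4:8296660-8296704) to -1.96 (chr4:8297998-8298057). Exon and UTR positions of the probes were not used here. An array read of a gene with a near copy may hold signal of both. AT3G48080, the neighbour and near copy of EDS1, read 1.52% and 3.68% in Col and was not well above background on either ore15-1D array. AT4G14390, the neighbour of ACD6, was not above background on any array.

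**Figure D4:**
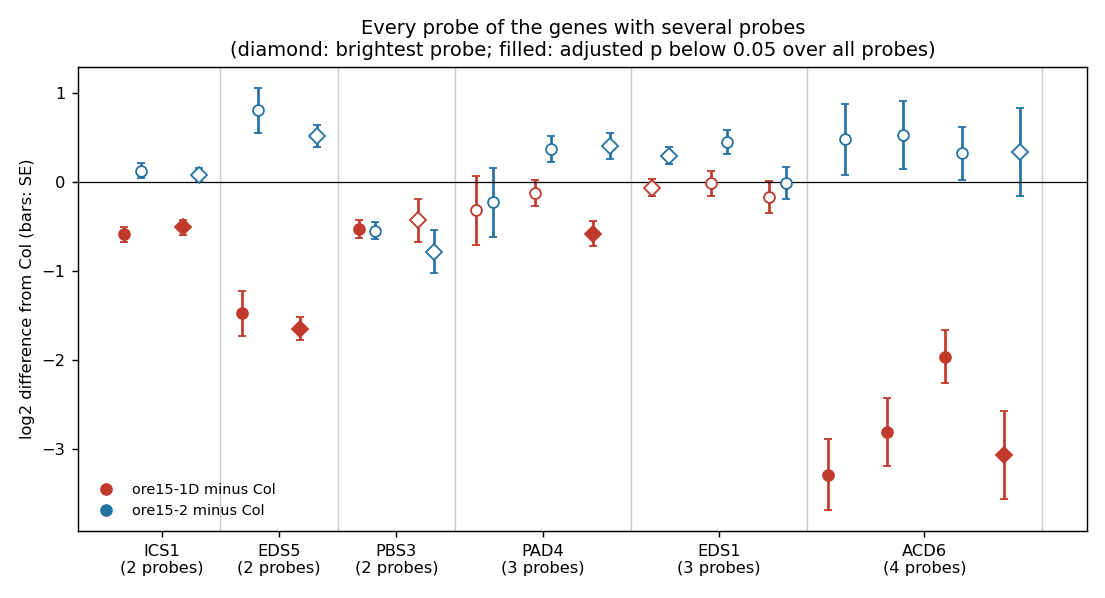
Log2 change in ore15-1D and ore15-2 against Col for every probe of the 6 genes with several probes, with bars for the SE of a limma fit over all probes. A diamond is the brightest probe, the one used for the gene, and filled symbols passed at an adjusted p below 0.05 over all probes. The 4 ACD6 probes lie between -3.29 and -1.96 in ore15-1D, while the 3 PAD4 probes spread from -0.58 to -0.12.

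The comparison of ore15-2 with Col asks how the genes differ in plants with the ore15-2 allele, which is taken to lack ORE15 function. By limma 0 of the 9 tested genes passed, beside 3.74% of all genes, 2.17% that rose and 1.57% that fell. At an unadjusted p below 0.05 there were 4, EDS5, PAD4 and EDS1 higher and PBS3 lower. The share of all genes at that unadjusted threshold was not counted, so the 4 cannot be set against it. Probes of PAD4 and EDS1 differed: the other PAD4 probes gave 0.38 and -0.23, and the other EDS1 probes 0.45 and -0.01. The other probe of EDS5 (0.81) and that of PBS3 (-0.55) kept their sign. With the mean of probes 2 of the 9 had an unadjusted p below 0.05 by limma, again with no share over all genes, and the median of the 9 was 0.25. SARD1 alone passed in 1 alternative, normexp with quantile normalization (0.50, limma adjusted p = 0.0317), and after normexp with the 75th percentile its value was -0.13. ICS1 (-0.26) and EDS5 (-0.74) were also below 0 there, where the median of all genes was -0.21. The arrays of ore15-2 and Col did not overlap for 7 genes, 6 higher and 1 lower in ore15-2, where 52.4% of all genes did not overlap, 26.6% higher and 25.8% lower. The median of the 9 was 0.34, beside 0.01 over all genes.

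Gene by gene, the values in ore15-2 were 0.66 ± 0.39 for SARD1 and 0.58 ± 0.34 for CBP60G, the regulators. For the synthesis and transport genes they were 0.08 ± 0.08 for ICS1, 0.52 ± 0.12 for EDS5 and -0.78 ± 0.24 for PBS3. EDS5, the transporter, came nearest to the threshold (limma adjusted p = 0.105), and PBS3, the enzyme after it, lay on the other side of 0. PAD4 gave 0.41 ± 0.14, EDS1 0.30 ± 0.09, ACD6 0.34 ± 0.49 and NPR1 0.01 ± 0.08. For ACD6 the arrays overlapped and the interval ran from -0.94 to 1.63, so that a sizeable difference in either direction was not detectable. For ICS1 it ran from -0.12 to 0.28. Within slide 2, set against Col replicate 2 without a test, SARD1 gave 0.54, CBP60G 0.80, EDS5 0.44, PBS3 -0.73, PAD4 0.52 and ACD6 0.01.

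Set directly against each other, ore15-1D was lower than ore15-2 for 7 of the 9 genes, where 55.7% of all genes differed, 29.6% lower and 26.1% higher. The arrays of the mutants did not overlap for 8 genes, all lower in ore15-1D, where 85.1% of all genes did not overlap, 43.9% lower and 41.2% higher. SARD1 differed by -4.87 ± 0.39 (limma adjusted p = 0.00285), ACD6 by -3.41 ± 0.49 (limma adjusted p = 0.00638) and CBP60G by -2.20 ± 0.34 (limma adjusted p = 0.00729). EDS5 differed by -2.17 and ICS1 by -0.59. PAD4 differed by -0.99 on its brightest probe, while its other probes gave -0.50, which passed, and -0.09, which did not (limma adjusted p over all probes = 0.0410 and 0.857). The mean of its probes gave -0.53 and did not pass (limma adjusted p = 0.0858). EDS1, which had not passed against Col in either mutant, passed here at -0.36 ± 0.09 (limma adjusted p = 0.0276). Of its other probes one gave -0.46 and passed, and the remaining one gave -0.16 and did not (limma adjusted p over all probes = 0.0419 and 0.483). PBS3 (0.36) and NPR1 (-0.11) did not pass, and PBS3 passed without ore15-2 replicate 2 (0.71, limma adjusted p = 0.0183). No slide held both mutants. With slide as a fixed block 0 of the 9 genes and 0% of all genes passed by limma in this comparison. At an unadjusted p below 0.05 by limma there were 6 of the 9, a share not counted over all genes.

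Ranked by group mean, 8 of the 9 genes had the order ore15-1D, Col, ore15-2 from low to high. The exception to the order in the main fit was PBS3, with ore15-2 lowest and Col highest. Both mutants were set against the same Col arrays, which therefore enter both neighbours of that order. The step from ore15-1D to Col passed for SARD1, CBP60G, ICS1, EDS5, PAD4 and ACD6, and the step from Col to ore15-2 for 0 of the 9. Neighbours in the order that did not differ beyond their spread by this test were thus Col and ore15-2 for 8 genes, ore15-1D and Col for EDS1 and NPR1, and both pairs of neighbours for PBS3.

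The genes also differed in how closely replicates of a genotype lay. Between the ore15-1D arrays SARD1 was lower on replicate 1 by a log2 difference of -1.17, a wider gap than that of 98.7% of all genes. ACD6 differed by -1.07 (98.5% of genes had a smaller gap) and CBP60G by -0.89 (97.8%). Of the 9 genes 8 were lower on ore15-1D replicate 1, where 48.8% of all genes were. The fall of these 3 genes was therefore deeper on 1 of the 2 ore15-1D samples, while ICS1 (-0.01) and EDS5 (0.08) had small gaps between the same arrays. Between the ore15-2 arrays PBS3 differed by -0.70 and ACD6 by -0.83. Between the Col arrays ACD6 differed by -0.67, SARD1 by -0.24 and CBP60G, with replicate 1 higher, by 0.44.

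The pathway around these genes was read from 6 lists with 56 other genes, of which 50 were tested. These lists too were chosen with earlier results of these data known. In ore15-1D 20 of the 50 fell and 3 rose, with a median of -0.49, beside 22% and 18.6% over all genes. These counts depended on the arrays. Without either ore15-1D array, or without Col replicate 2, fewer of the 50 passed, and fewer of all genes did. The median of the 50 was -0.41 without ore15-1D replicate 1, -0.43 without ore15-1D replicate 2 and -0.50 without Col replicate 2.

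Other routes of supply were lower in part. Of 6 tested genes 3 fell and 0 rose, where 22% of all genes fell and 18.6% rose. PAL3 and PAL1, phenylalanine ammonia-lyases that open the other route to salicylic acid and all phenylpropanoids, fell by 1.46 ± 0.22 and 0.91 ± 0.13 (limma adjusted p = 0.0116 and 0.0104). ICS2, the second isochorismate synthase, fell by 0.82 ± 0.17. PAL1 read 672% and 679% in Col, 375% and 344% in ore15-1D, and 882% and 1099% in ore15-2.

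All 5 tested genes of salicylic acid turnover fell in ore15-1D, where 22% of all genes fell. Their median was -1.72, and 3 other turnover genes were not well above background on any array. MES9, an esterase that frees salicylic acid from its methyl ester, read 11.7% and 12.4% in Col and 2.40% and 3.01% in ore15-1D, a fall of 2.17 ± 0.17 (limma adjusted p = 0.00477). UGT74F2, a glucosyltransferase of salicylic acid, fell by 1.91 ± 0.27, and DMR6, a hydroxylase that breaks it down, fell by 1.72 ± 0.20. SOT12, a sulfotransferase that accepts it, fell by 0.91 ± 0.14. The smallest fall was that of UGT74F1, -0.34 ± 0.10, just within the threshold (limma adjusted p = 0.0499).

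Among EDS1 partners and the pipecolic acid genes 2 of 6 fell and 0 rose, where 22% of all genes fell and 18.6% rose. SAG101, a lipase-like protein that binds EDS1 in place of PAD4, fell by 0.97 ± 0.10 (limma adjusted p = 0.00666), and ADR1-L1, a helper immune receptor that works with EDS1 and PAD4, by 0.71 ± 0.08. Its relative ADR1-L2 gave -0.30 in ore15-1D and did not pass, and it was the only gene of the 50 that rose in ore15-2, by 0.66 ± 0.11 (limma adjusted p = 0.0493). That call was lost when any 1 array was left out, after quantile normalization (limma adjusted p = 0.0515) and under most other alternatives, where the adjusted p reached 0.567.

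Of the other CBP60 genes and the CAMTA genes 1 of 9 fell and 2 rose, and of the relatives and partners of NPR1 2 of 12 fell and 1 rose. These shares are near or below those over all genes, 22% lower and 18.6% higher. CBP60A, described as a negative regulator of immunity, fell by 0.76 ± 0.13, while CBP60D rose by 0.54 ± 0.10 (-0.56 and not passing after normexp with the 75th percentile) and CAMTA3, a repressor of SARD1 and CBP60G, rose by 0.27 ± 0.08 (limma adjusted p = 0.0452). Among the NPR1 relatives NPR3, a salicylic acid receptor that acts as a corepressor, fell by 0.89 ± 0.12 and TGA1, a transcription factor that works with NPR proteins, by 1.45 ± 0.16. NIMIN1, a small protein that binds NPR1 and dampens its output, rose by 0.79 ± 0.15 in ore15-1D (limma adjusted p = 0.0167, but -0.39 and not passing after normexp with the 75th percentile) and fell by 0.94 ± 0.15 in ore15-2 (limma adjusted p = 0.0459). The call in ore15-2 was lost when any 1 array was left out (limma adjusted p = 0.0730 to 0.168). Its level was 15.8% and 19.8% in ore15-1D, 11.02% and 9.49% in Col, and 5.46% and 5.22% in ore15-2, the reverse of the order seen for most salicylic acid genes.

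Genes known to respond to salicylic acid fell in 7 of 12 cases and rose in 0, where 22% of all genes fell and 18.6% rose. Their median was -1.31. PR1, the usual marker of the response, was not well above background on any array. PCC1, a small membrane protein induced by pathogens, read 665% and 994% in Col, 114% and 771% in ore15-2, and 6.98% and 46.7% in ore15-1D, a fall of 5.49 ± 1.27 (limma adjusted p = 0.0281). LURP1, needed for defence against an oomycete, fell by 2.48 ± 0.30 and GRXC9, a glutaredoxin induced through TGA factors, by 2.43 ± 0.67. AED1, an aspartic protease, fell by 2.47 ± 0.44, with 1 of 2 ore15-1D arrays measuring it, and WRKY70, a transcription factor between salicylic acid and jasmonate signalling, by 1.14 ± 0.27 (limma adjusted p = 0.0291). In ore15-2 GRXC9 gave 1.78 ± 0.67 and PCC1 -1.46 ± 1.27, and neither passed.

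**Figure D5:**
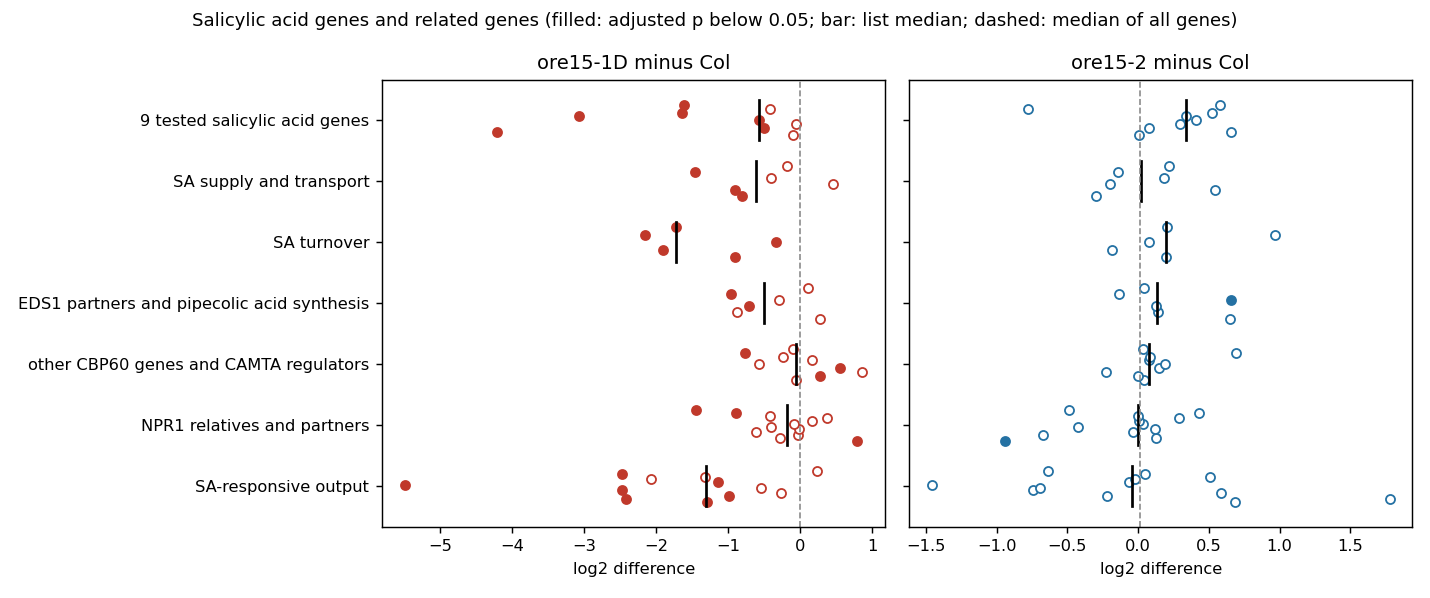
Log2 change of each tested gene of the salicylic acid genes and of the 6 lists around them, in ore15-1D and in ore15-2 against the same Col arrays, with filled symbols for genes that passed at an adjusted p below 0.05 a bar at the median of each list and a dashed line at the median of all genes. The 2 panels have different ranges. In ore15-1D the median lies lowest for turnover, at -1.72, and at -0.07 for the other CBP60 and CAMTA genes.

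In ore15-2 1 of the 50 genes rose and 1 fell, ADR1-L2 and NIMIN1, beside 2.17% and 1.57% over all genes. Under the alternatives 0 to 6 of the 50 passed. Set against ore15-2, ore15-1D was lower for 27 and higher for 6 of the 50, where 29.6% of all genes were lower and 26.1% higher.

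Markers of several leaf cell types moved in ore15-1D as well. Their summed level was 69551% to 77510% of the 75th percentile for the 4 mesophyll markers in ore15-1D, 114142% to 120612% in Col and 130494% to 145227% in ore15-2, and all 4 fell in ore15-1D. The 3 vasculature markers summed to 487% to 492%, 913% to 1063% and 824% to 1109.9% in the same order, and the 3 guard cell markers to 121% to 131%, 279% to 299% and 343% to 419%. Each of these 6 genes fell in ore15-1D. Of 3 root markers all were above background in Col and ore15-2 and 1 in ore15-1D, with sums of 21.5% to 25.05% in ore15-1D, 47.3% to 48.9% in Col and 37.1% to 49.8% in ore15-2. Of 3 floral markers only PI was above background, and it rose in ore15-2 by 1.88. Meristem markers summed to at most 2.13% on any array. The part of these shifts in the values of the salicylic acid genes was not tested.

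The genes whose pattern over the 6 arrays was most like the mean of the salicylic acid genes were found by the root mean square difference of log2 profiles, each centred on its own mean, among 20139 genes. The mean profile used the 8 genes that were above background on all arrays, and so left out SARD1 and FMO1. The nearest were AT4G34480 (0.038), AT1G03290 (0.059), AT5G40960 (0.064), AT5G54940 (0.064), RLP46 (0.065) and AT2G16210 (0.067). AT4G34480, for example, read 16.3% and 15.4% in Col, 7.02% and 8.25% in ore15-1D and 16.2% and 19.8% in ore15-2. Among the salicylic acid genes themselves PAD4 lay nearest to the mean of the others, at 0.21, and SARD1 farthest, at 1.66. With 6 arrays of 3 genotypes such a likeness rests mainly on the differences between genotypes.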

How the data were processed

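Cy3-labelled total RNA of 6 leaf samples was read on 1-colour Agilent arrays, per the labels. The submitters' processing notes name Agilent Feature Extraction 11.5. Per the file headers, its processed signal is a linear intensity from which the software had already subtracted background. The log2 values of the authors' deposited tables have a scaling not given in the sources used here and served only as an alternative. Probes were named by locus from the deposited table of array elements (TAIR10), and symbols were taken from RefSeq genes (TAIR10.1).

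Of 45220 spots per array, 1417 were controls and were dropped, as were those the scanner marked as outliers. Repeated spots were averaged per probe. Probes of several loci were left out, and the brightest probe stood for a gene. The log2 processed signal minus the 75th percentile of its array was fitted with limma 3.58.1 in R 4.3.3 (lmFit, eBayes) on all 6 arrays, with 3 residual degrees of freedom. The fit was tested on simulated data. The number of arrays limits the precision. Groups and replicate numbers came from the labels. P-values measure the spread between the 2 samples of a genotype, and for each mutant both arrays lay on 1 slide.

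Same-numbered samples were checked for shared deviations over all genes. The correlations were -0.09 (Col and ore15-1D), 0.13 (Col and ore15-2) and -0.01 (ore15-1D and ore15-2), and the main fit did not pair the samples. Values over all genes cannot show whether single genes shift together by number. ACD6 and PCC1 were lower on replicate 1 in every genotype, while CBP60G and GRXC9 were not.

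Members and lists were chosen with earlier results of these data known. Named genes were the members, ORE15, up to 4 genes per list with a call by the size of the change, PR1, WRKY70 and PAL1, near copies of members, and the 6 genes nearest in pattern. Sensitivity of the related genes was added after seeing the data. Normexp (offset 50) used median spot and median background signal, since the files used here hold no mean signal. Alternatives were quantile normalization, normexp, other filters, the mean of probes, slide and replicate blocks, single slides, a trend in the spread, fewer genotypes, the deposited table and leaving out each array.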

Additional observations from a re-analysis of the deposited data

How the results depend on the processing

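The 6 salicylic acid genes that passed in ore15-1D against Col became 0 after normexp with the 75th percentile, where 0% of all genes passed. They became 3 with slide as a fixed block, where 19.2% of all genes passed. The block gives the same change as leaving out Col replicate 2. The count was lower when an ore15-1D or Col array was left out, lowest without ore15-1D replicate 1, as it was over all genes. The other alternatives gave 5 to 7, among them 5 with the replicate number as a block, although same-numbered samples correlated little over all genes. In ore15-2 against Col the count of 0 became 1 after normexp with quantile normalization and was 0 under every other alternative. For ore15-1D against ore15-2 the count of 7 became 0 after normexp with the 75th percentile and 0 with slide as a fixed block. In both settings 0% of all genes passed. The count changed little when 1 array was left out.

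Of the 50 related genes, the 23 that passed in ore15-1D became 0 after normexp with the 75th percentile and 14 with the slide block, and 1 to 26 without 1 array. In ore15-2 the count of 2 became 6 after normexp with quantile normalization, 6 with a trend in the spread, 5 with the filter on all 6 arrays and 4 in the authors' deposited table. It was 1 after quantile normalization, with the mean of probes and with slide as a random block. It was 0 after normexp with the 75th percentile, without a filter, with slide as a fixed block, with the replicate block and with only the genotypes compared. In each of these at most 0.0148% of all genes passed. The count did not rise when 1 array was left out. The 33 between the mutants became 0 after normexp with the 75th percentile and 0 with the slide block, and 16 to 31 without 1 array.

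Values that changed sign had not passed, except NIMIN1 and CBP60D. After normexp with the 75th percentile SARD1, ICS1, EDS5 and MES9 in ore15-2 gave -0.13, -0.26, -0.74 and -0.34, and NPR1, NIMIN1 and CBP60D in ore15-1D gave 0.018, -0.39 and -0.56. In the authors' deposited table EDS1 in ore15-1D gave 0.024 and NPR1 in ore15-2 -0.025. NPR1 in ore15-2 was also -0.024 after normexp with quantile normalization, and -0.020 to 0.032 without 1 array (-0.016 without Col replicate 2). ACD6 in ore15-2 was -0.076 to 0.76 without 1 array, lowest without ore15-2 replicate 2. The cause was not tested. Signal over background limits SARD1 in ore15-1D, with 1 array measuring it, and FMO1, which was not tested.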

Other observations

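Among the genes that respond to salicylic acid, some differed widely between samples of 1 genotype. PCC1 was lower on replicate 1 than on replicate 2 by a log2 difference of -2.74 in ore15-1D and -2.76 in ore15-2, wider gaps than those of 99.9% of all genes in each. GRXC9 differed by -1.62 in ore15-1D (99.5% of genes had a smaller gap) and by 1.26, with replicate 1 higher, in ore15-2 (98.3%). In ore15-1D WRKY70 differed by -0.78 (97.1%). Between the Col arrays the differences were -0.58 for PCC1, -0.07 for GRXC9 and -0.03 for WRKY70. In ore15-2 7 of the 9 tested salicylic acid genes were lower on replicate 1, where 48.9% of all genes were, and in Col 3 of 9 were, where 54.2% of all genes were.

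AT3G48080, the near copy of EDS1, was not well above background on either ore15-1D array. The change fitted to its values as read was -1.95 (limma adjusted p = 0.0469). As a rough bound, which was not tested, AT3G48080 was 2.95-fold lower in ore15-1D than the mean of the 2 Col arrays. Those arrays differed widely, at 1.52% and 3.68%. For this bound the ore15-1D arrays were set at the dimmest signal still read well above background, or at that of the probe where this was higher. That signal is no strict limit of detection. It was 0.757% on ore15-1D replicate 1, where SARD1 at 0.902% was not well above background.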
